A study of Mus musculus with 24 samples.

Results

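A group of 6 genes of thyroid hormone supply and reception were followed in mouse liver: the plasma carriers Serpina7 and Ttr, the transporter Slc16a10, the deiodinase Dio1, and the receptors Thra and Thrb. They were taken as every gene probe on the array that carries one of these 6 names, which gave 15 of the 56605 probes, 14 of them with a signal clear enough to use. The genes were chosen by what they do and by measured values of the same livers: the log2 differences between these 4 groups were already known, among them the unequal response of Serpina7 in the 2 genotypes. Their own differences are therefore given as a description, with standard errors (SE) and 95% intervals and without p-values.

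Livers came from 24 male C57Bl/6J mice on a standard diet, 6 in each of 4 groups. The genotypes carry the labels LWT and LKO, which the series title describes as hepatocytes that express PPARα or do not. In each genotype, mice were gavaged at zeitgeber time 10, in hours after lights on, with the β3-adrenergic agonist CL316243 at 3 mg/kg in 0.5% carboxymethyl cellulose, or with this vehicle alone. All were killed at zeitgeber time 16, which is 6 hours later and in the dark phase. The Cre driver, the deleted exons and the age of the animals are not given in the sources used here. According to the design text each array is a different mouse, so the spread between replicates is a spread between animals.

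Thyroid hormone leaves the thyroid mostly as the prohormone thyroxine and travels in plasma bound to proteins made largely by the liver: thyroxine-binding globulin (Serpina7), transthyretin (Ttr) and albumin. Membrane transporters carry it across the cell surface, and type 1 deiodinase (Dio1), a selenoenzyme abundant in liver, removes iodine from the outer ring to give the active hormone or from the inner ring to inactivate it. The receptors encoded by Thra and Thrb bind DNA with retinoid X receptors, and in hepatocytes Thrb is the main form. CL316243 acts first on β3-adrenergic receptors of adipose tissue, where it releases fatty acids and heat.

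The readings rest on 60-base probes, and the following ones are shown because Serpina7 has a single probe and because the separate sites within Dio1, Slc16a10 and Thra served as checks on each other. They are written 5′ to 3′ as the array design gives them, in lower case, with the number of the first base in the transcript.
Serpina7, base 957: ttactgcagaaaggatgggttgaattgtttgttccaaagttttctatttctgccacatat
Dio1, base 301: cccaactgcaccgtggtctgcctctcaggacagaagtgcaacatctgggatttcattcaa
Dio1, base 739: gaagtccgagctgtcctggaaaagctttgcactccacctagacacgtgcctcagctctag
Slc16a10, base 884: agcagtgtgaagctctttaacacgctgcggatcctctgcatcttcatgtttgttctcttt
Thra, base 536: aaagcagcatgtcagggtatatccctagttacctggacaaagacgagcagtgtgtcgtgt
Thra, base 1462: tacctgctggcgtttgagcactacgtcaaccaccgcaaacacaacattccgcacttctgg
On the array's mm9 annotation the Serpina7 probe covers chromosome X, 135615848 to 135616502, on the minus strand, a span of 655 bases for 60 bases of RNA, so it crosses an intron and reads spliced transcript. The first Dio1 probe lies at chromosome 4, 106979388 to 106979447, and the second at 106964935 to 106964994. The Slc16a10 probe is at chromosome 10, 39796577 to 39796636. The Thra probe at base 536 also crosses an intron (chromosome 11, 98617475 to 98618281), and the one at base 1462 lies within 98625642 to 98625701.

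Serpina7 and Slc16a10 were the members whose 95% intervals for the difference with CL316243 lay above 0 in both genotypes, so the 250 bases before their RefSeq transcript starts are shown as well (build GRCm38.p6, minus strand, 5′ to 3′). Capitals mark GTTAAT, the half-site that hepatocyte nuclear factor 1 proteins can bind.
Serpina7, chrX:139085237-139085486: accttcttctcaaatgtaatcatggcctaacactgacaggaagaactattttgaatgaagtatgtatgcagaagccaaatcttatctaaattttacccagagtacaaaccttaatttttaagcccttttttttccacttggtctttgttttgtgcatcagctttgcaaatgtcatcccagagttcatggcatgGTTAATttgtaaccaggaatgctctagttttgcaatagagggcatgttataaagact
Slc16a10, chr10:40142255-40142504: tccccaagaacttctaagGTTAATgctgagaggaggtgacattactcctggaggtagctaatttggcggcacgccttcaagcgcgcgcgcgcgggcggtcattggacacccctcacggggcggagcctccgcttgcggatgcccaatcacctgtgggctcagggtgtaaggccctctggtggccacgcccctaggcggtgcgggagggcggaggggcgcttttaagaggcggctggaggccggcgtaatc
In Serpina7 the match begins 57 bases before the start, or 74 before a second listed start, and in Slc16a10 it begins 232 bases before it. Thrb, which was not higher after CL316243, also had a match, on the opposite strand 44 bases before 1 of its 2 listed starts, and Dio1 had none. Searched on both strands, GTTAAT was present in 7.1% of the 32851 promoter windows of 300 bases in the RefSeq table. The nuclear receptor half-site AGGTCA, present in 16.3% of windows, was found in neither gene. The same was true of its direct repeats AGGTCANAGGTCA, in 0.0396% of windows, and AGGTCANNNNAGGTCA, in 0.0152%, both of which contain the half-site. The table held windows for 4 of the 6 genes, Serpina7, Dio1, Slc16a10 and Thrb, and among them AGGTCA occurred in 1 window of Thrb only, 184 bases before the start. These matches describe letters and not bound sites.

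Signals are given as log2 of the background-corrected intensity relative to the 75th percentile of the same array, so 1 unit is a doubling and 0 is the level of the 75th percentile. That percentile was 397 to 578 intensity units, and 26985 to 34202 probes per array stood well above background. Levels of different probes are not comparable, since each probe has its own brightness. Ppara itself was lower in LKO than in LWT by 0.68 under vehicle (limma adjusted p = 0.158) and by 1.91 under CL316243 (adjusted p = 3.6e-07), although whether its probe lies in the deleted part is not known. The 5 hepatocyte markers were well above background on all 24 arrays. LKO CL316243 replicate 3 stood apart: its neutrophil marker sum, over 4 genes, was 47.1 times the 75th percentile against 19.4 in the next mouse, its cholangiocyte sum was 5.72 against 4.09, and its endothelial sum of 13 was the lowest of its group. Its adipocyte sum was 1.52 against 0.85 in the next mouse. For the 6 genes and the counts of calls, results that rest on this mouse are given with and without it. Differences of other pathway genes are over all mice unless stated. The neutrophil and cholangiocyte sums also moved with treatment over the whole groups. From vehicle to CL316243 the neutrophil median went from 2.65 (1.82 to 5.05) to 7.76 (1.93 to 13.4) in LWT and from 2.17 (1.97 to 3.13) to 7.31 (3.40 to 47.1) in LKO. The cholangiocyte median went from 0.89 (0.59 to 1.25) to 2.06 (0.93 to 2.88) in LWT and from 0.78 (0.65 to 1.23) to 3.31 (1.38 to 5.72) in LKO. In LKO neither sum overlapped between vehicle and CL316243, and in LWT both did. Detection of the cholangiocyte marker Krt7 did not rise with its sum: it was well above background in 6, 5, 3 and 3 of 6 livers of LWT vehicle, LWT CL316243, LKO vehicle and LKO CL316243. The stellate cell or fibroblast median went from 50.6 to 60.8 in LWT and from 54.4 to 62.4 in LKO, with overlap in both. The hepatocyte medians lay between 1942 and 2038 in the 4 groups. What part the neutrophil, cholangiocyte and stellate sums have in the differences of the 6 genes with CL316243 was not tested.

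**Figure D1:**
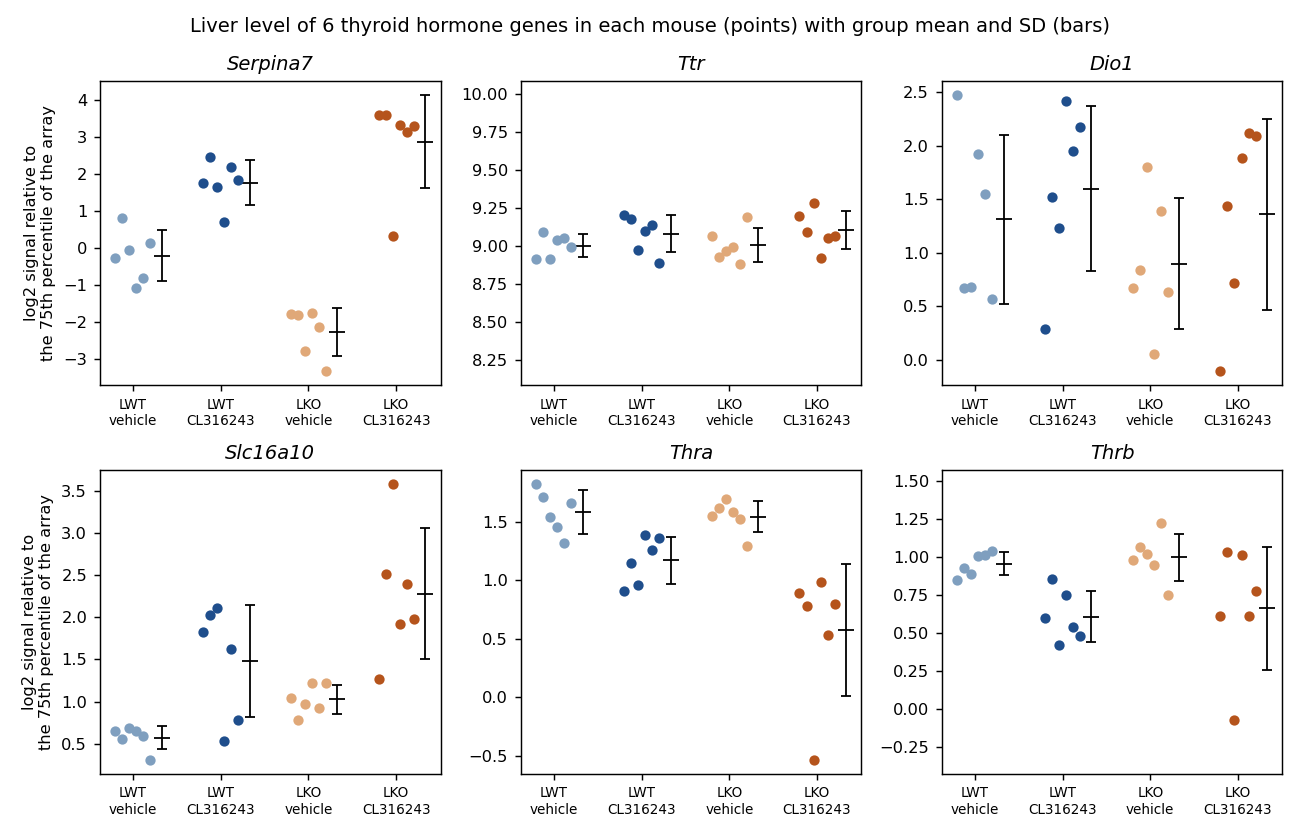
Level of each of the 6 genes in each of the 24 mice (points, in order of replicate number) by group, as log2 signal relative to the 75th percentile of the array, with the group mean and SD beside the points. Scales differ between panels, and each spans at least 2 log2 units. Serpina7 was lowest in LKO vehicle mice and highest in LKO CL316243 mice, with replicate 3 of that group at 0.32, whereas Dio1 covered nearly the same range in every group.

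Serpina7 showed the largest differences of the 6 genes. In LWT livers its level ran from -1.09 through a median of -0.17 to 0.82 under vehicle, and from 0.69 through 1.79 to 2.45 after CL316243. In LKO livers it ran from -3.32 through -1.96 to -1.75 under vehicle, and from 0.32 through 3.30 to 3.58 after CL316243. The 4 groups thus lay in the order LKO vehicle, LWT vehicle, LWT CL316243, LKO CL316243. The first of these did not overlap the next, whereas each of the later neighbours shared part of its range. By group median the 2 genotypes changed places with treatment: thyroxine-binding globulin mRNA was lower in LKO than in LWT under vehicle and, in 5 of 6 mice, above the LWT mean after CL316243. The latter difference was not called at a limma adjusted p under 0.05, nor in any of 10 other settings. Of 12 fits that left out a mouse, 1 called it, the one without LKO CL316243 replicate 3.

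In group means, Serpina7 went from -0.21 ± 0.68 to 1.76 ± 0.60 (SD, n = 6 each) in LWT and from -2.26 ± 0.65 to 2.87 ± 1.26 in LKO. The difference with CL316243 was 1.97 (SE 0.46), or 3.92-fold with a 95% interval of 2.01 to 7.62, in LWT. It was 5.12 (SE 0.46), or 34.9-fold with an interval of 17.9 to 67.9, in LKO, where the groups did not overlap. The LKO difference exceeded that of LWT by 3.16 (SE 0.66, interval 1.80 to 4.51). Between genotypes, LKO was lower by 4.13-fold under vehicle, without overlap, and higher by 2.16-fold under CL316243 (interval 1.11 to 4.20), with overlap. In bulk liver, fewer cells that make a transcript cannot be told apart from less of it per cell.

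A single mouse widened the LKO CL316243 group of Serpina7. Replicate 3 was at 0.32, and the other 5 mice were between 3.11 and 3.58, all above the highest LWT CL316243 mouse at 2.45. Without replicate 3 the group mean was 3.38 ± 0.20 (SD, n = 5). The LKO difference with CL316243 then became 5.63 (SE 0.34), the excess over LWT 3.66 (SE 0.46), and LKO exceeded LWT under CL316243 by 1.62 (SE 0.34) in place of 1.11. This is the liver with the high neutrophil sum, whose part in the Serpina7 level was not tested. Each of 3 slides held 2 mice of every group, and within them the excess of the LKO difference was 3.78, 3.45 and 2.24. The vehicle difference between genotypes varied more, at -3.08, -2.06 and -0.99, and its call at the 0.05 threshold was lost when any of 5 of the 12 vehicle mice was left out.

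The genes whose levels followed Serpina7 most closely were sought over all 24 mice, after each gene was centred on its mean and divided by its SD. Likeness was the root mean square of the remaining difference, for which the median over 21330 genes was 1.36. Nearest were Mum1l1 at 0.34, Cic, a transcriptional repressor, at 0.37, and Dgkd, a diacylglycerol kinase, at 0.47. Mum1l1, now called Pwwp3b, is also a neighbour of Serpina7 on the X chromosome, with 2 protein-coding genes between them in the RefSeq order.

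Mum1l1 was dim: it was well above background in 1 and 0 of 6 vehicle livers of LWT and LKO, and in 5 of 6 after CL316243 in both genotypes. In LKO its level was at least 5.08-fold higher after CL316243, counted against the dimmest signal well above background. Of the genes in between, 4930513O06Rik, next to Serpina7, was well above background in 2, 4, 1 and 5 of 6 livers of LWT vehicle, LWT CL316243, LKO vehicle and LKO CL316243, too few under vehicle for a fold to be given, and 4933428M09Rik had no probe. Trap1a, beyond Mum1l1 on the same side, was detected on 0 arrays. On the other side, Nrk, Tex13a and Il1rapl2 were detected on 1 array at most of any group. These neighbours were looked up after the likeness of Mum1l1 had been seen.

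**Figure D2:**
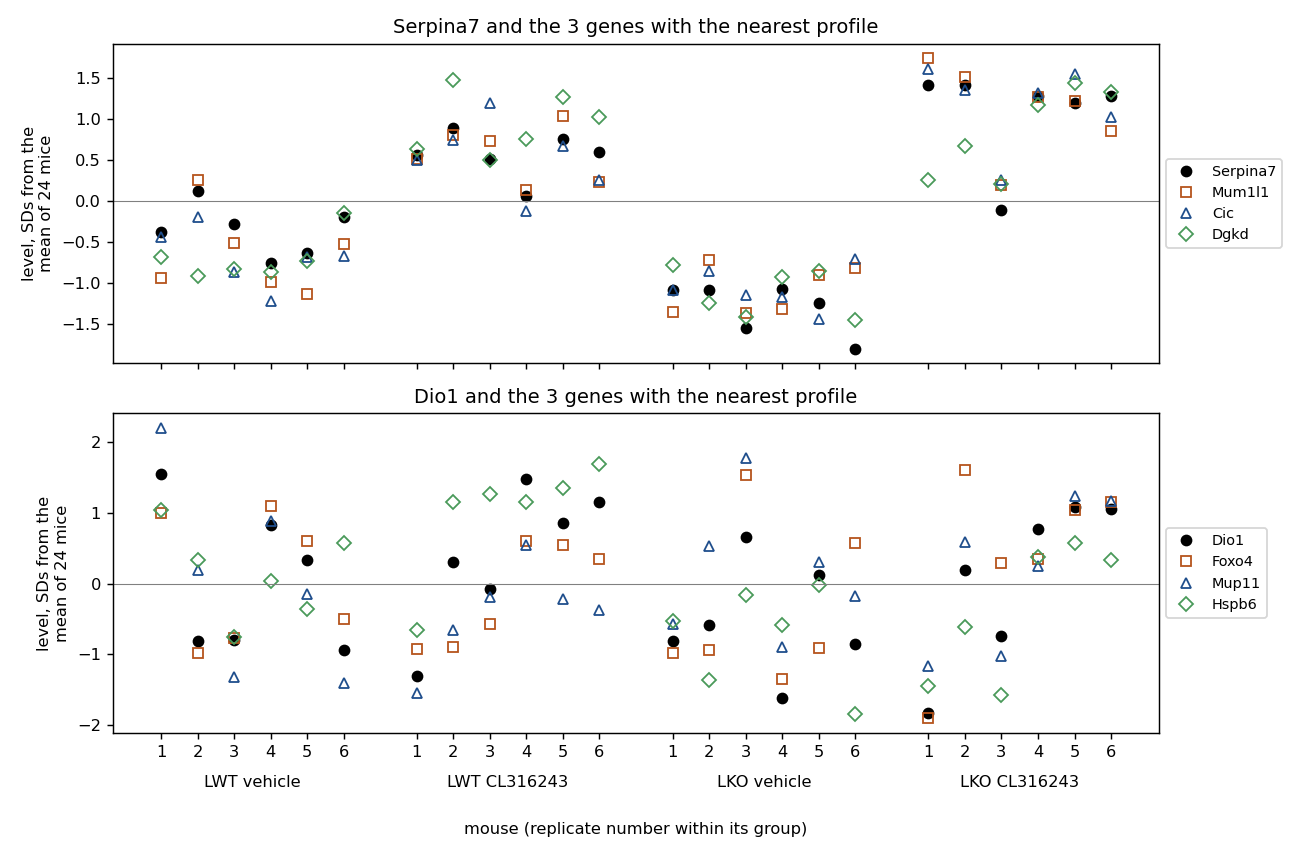
Levels of Serpina7 (top) and Dio1 (bottom) with the 3 genes nearest to each in profile, in SDs from the mean of 24 mice, for every mouse by group and replicate number. Serpina7 moved with group and was low in LKO CL316243 replicate 3, while the Dio1 profile differed between mice within every group. The other genes were picked for likeness over these same mice, so the pattern they share is no separate result. Mum1l1 was well above background in 1 of 6 LWT and 0 of 6 LKO vehicle livers.

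Transthyretin, the second carrier, was nearly level across groups at its brighter probe, but not at its other one. The brighter probe, at base 428 (chromosome 18, 20828519 to 20828577), ran from 8.91 through a median of 9.02 to 9.09 in LWT vehicle livers. In LWT CL316243 livers it ran from 8.89 through 9.12 to 9.20. In LKO it ran from 8.88 through 8.98 to 9.19 under vehicle and from 8.92 through 9.08 to 9.28 after CL316243. All 4 ranges overlapped. The difference with CL316243 was 0.08 (95% interval -0.07 to 0.22) in LWT and 0.10 (-0.05 to 0.24) in LKO, so at this probe a rise above 1.18-fold lies outside both intervals.

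The 2 Ttr probes disagreed in sign. At the probe starting at base 1005, Ttr was lower after CL316243, by 0.32 (SE 0.11) in LWT and by 0.46 (SE 0.11) in LKO, with 0 of 6 treated LKO livers above the vehicle mean. The profiles of the probes across mice differed by 1.52 SD, more than the median of 1.31 for all other genes against the brighter probe. Quantile normalization also turned the brighter probe's difference, to -0.14 in LWT and -0.10 in LKO. No direction is therefore given for Ttr.

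Slc16a10, which encodes the aromatic amino acid and iodothyronine transporter MCT10, was higher after CL316243 in both genotypes. In LWT its level ran from 0.31 through a median of 0.62 to 0.69 under vehicle and from 0.54 through 1.73 to 2.11 after CL316243. In LKO it ran from 0.79 through 1.01 to 1.22 under vehicle and from 1.27 through 2.19 to 3.58 after CL316243. Vehicle livers were tightly grouped, with every LKO mouse above every LWT mouse at this probe, base 2195, and treated livers spread over a wider range. The vehicle ranges of the genotypes were also apart at base 1044, narrowly (-1.74 highest in LWT, -1.73 lowest in LKO). At base 884 they overlapped (-1.39 highest in LWT, -1.44 lowest in LKO).

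The Slc16a10 means were 0.57 ± 0.14 and 1.48 ± 0.67 (SD, n = 6 each) in LWT and 1.03 ± 0.17 and 2.28 ± 0.77 in LKO. CL316243 livers were higher by 1.88-fold (interval 1.24 to 2.84) in LWT and by 2.37-fold (1.57 to 3.59) in LKO, and the 2 differences were 0.34 apart (SE 0.41, interval -0.51 to 1.18). LKO exceeded LWT by 0.46 (SE 0.29) under vehicle and by 0.79 (SE 0.29) under CL316243. Within the 3 slides the latter difference was 2.39, -0.44 and 0.43, with no common sign, and the former 0.60, 0.31 and 0.46. The highest value, 3.58, belonged again to LKO CL316243 replicate 3, and without that mouse the LKO difference was 0.99 and the excess over LWT under CL316243 was 0.53, 1.49 times smaller, and the responses of the genotypes were 0.08 apart. The part of its neutrophil and cholangiocyte markers was not tested.

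All 3 Slc16a10 probes gave positive differences in both genotypes. Their profiles over the mice lay 0.18 to 0.35 SD from each other, although they sit at 3 separate places of the gene. Each base is numbered on a different transcript record, so the numbers give no order along the gene. The difference in LKO was 1.25, 1.05 and 0.94 at bases 2195, 884 and 1044. In LWT it was 0.91, 0.62 and 0.35, the last with an interval that reached -0.10. The genes nearest in profile were Ssx2ip at 0.32, Rragc, a GTPase of amino acid signalling to mTORC1, at 0.33, and Atp2a2, the calcium pump of the endoplasmic reticulum, at 0.33, where the median over all genes was 1.35.

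**Figure D3:**
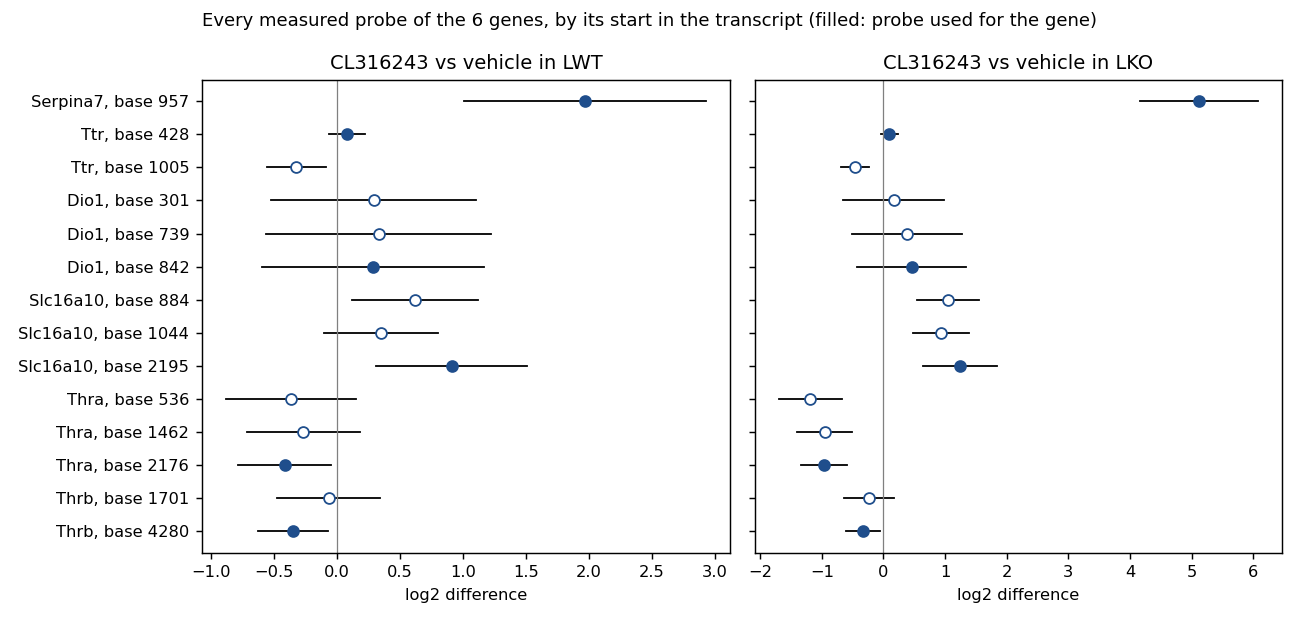
Log2 difference between CL316243 and vehicle, with its 95% interval, for each of the 14 usable probes in LWT (left) and LKO (right), named by gene and first base in the probe's own transcript record. Horizontal scales differ between the panels. Filled points mark the probe that stands for the gene. The probes of Dio1, of Slc16a10 and of Thra fall together, while the Ttr probes lie on opposite sides of 0.

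Dio1, the hepatic deiodinase, varied more between mice of a group than between groups. Its level ran from 0.57 through a median of 1.11 to 2.47 in LWT vehicle and from 0.29 through 1.73 to 2.42 in LWT CL316243 livers. In LKO it ran from 0.05 through 0.75 to 1.80 under vehicle and from -0.11 through 1.66 to 2.12 after CL316243. Every group thus covered 1.74 to 2.22 log2 units, and all 4 ranges overlapped.

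The Dio1 difference with CL316243 was 0.29 (SE 0.43, interval -0.60 to 1.17) in LWT and 0.46 (SE 0.43, interval -0.42 to 1.34) in LKO. Differences up to 2.25-fold in LWT and 2.54-fold in LKO thus remain within the intervals. LKO was lower than LWT by 0.41 under vehicle (interval -1.30 to 0.47) and by 0.24 under CL316243 (-1.12 to 0.64). Within the 3 slides the LWT difference was 1.67, -0.19 and -0.62 and the LKO difference -0.13, 0.24 and 1.28, with no common sign.

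All Dio1 probes showed like profiles across the mice. Those at bases 842 and 739 differed by only 0.09 SD over the 24 mice, and each lay 0.24 to 0.29 SD from the profile at base 301, which is over an intron away. No other gene came as close: the nearest were Foxo4, a forkhead factor, at 0.69, Mup11, a major urinary protein, at 0.71, and Hspb6, a small heat shock protein, at 0.77, with a median of 1.39 over all genes. The other deiodinases could not be compared, since Dio2 was well above background on 0 of 24 arrays and Dio3 on 1.

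Thra, which encodes receptor α, was lower after CL316243. In LWT its main probe, at base 2176, ran from 1.32 through a median of 1.60 to 1.83 under vehicle and from 0.91 through 1.20 to 1.39 after CL316243. In LKO it ran from 1.30 through 1.57 to 1.69 under vehicle and from -0.53 through 0.79 to 0.99 after CL316243. The LWT ranges shared a narrow strip, and the LKO ranges did not overlap.

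Means of Thra were 1.58 ± 0.18 and 1.17 ± 0.20 (SD, n = 6 each) in LWT, and 1.54 ± 0.13 and 0.58 ± 0.57 in LKO. The level was 1.33-fold lower with CL316243 in LWT (a log2 difference of -0.41, SE 0.18) and 1.95-fold lower in LKO (-0.97, SE 0.18). Under vehicle the genotypes were 0.04 apart, and under CL316243 LKO was lower by 0.59 (SE 0.18). LKO CL316243 replicate 3 was the lowest liver, at -0.53 against 0.54 in the next. Without it the LKO difference was -0.74 (SE 0.11), and LKO was lower than LWT under CL316243 by 0.37, 1.60 times less. That mouse is also the one whose marker sums stood apart, and their part in its Thra level was not tested.

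The other usable Thra probes gave like differences with CL316243, but the profiles of the 3 probes over the mice lay 0.52 to 0.69 SD apart. At base 1462 the LKO vehicle and CL316243 ranges overlapped. There LKO was above LWT under vehicle by 0.31 (interval -0.14 to 0.76), against -0.04 at the main probe. At bases 1462 and 536 the level was lower in LKO after CL316243 by 0.95 (SE 0.22) and 1.19 (SE 0.25), and in LWT by 0.27 (SE 0.22) and 0.36 (SE 0.25). The probe at base 536 was well above background in 3 of 6 treated LKO livers and in 5 or 6 of 6 elsewhere. One more probe, at base 132 of another transcript, was above background on 0 arrays. Nearest to Thra in profile were Ccdc85b at 0.34, Pcyox1, a prenylcysteine oxidase, at 0.36, and Acbd4, an acyl-CoA binding protein, at 0.36, with a median of 1.43.

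Thrb, the main hepatic receptor gene, differed less. In LWT its level at base 4280 ran from 0.85 through a median of 0.97 to 1.04 under vehicle and from 0.42 through 0.57 to 0.86 after CL316243, the ranges touching at one end. In LKO it ran from 0.75 to 1.22 under vehicle, with a mean of 0.998, and from -0.07 through a median of 0.69 to 1.03 after CL316243, with a broad overlap. The difference was -0.35 (SE 0.13) in LWT and -0.34 (SE 0.13) in LKO, or 1.27- and 1.26-fold lower.

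Replicate 3 of the LKO CL316243 group was again the lowest liver for Thrb, at -0.07 against 0.61 in the next. Without it the LKO difference was -0.19 (SE 0.10), 1.78 times smaller. At the other Thrb probe, base 1701, the differences were -0.06 (interval -0.47 to 0.34) in LWT and -0.23 (-0.64 to 0.17) in LKO, and the probes' profiles lay 0.76 SD apart. Calls at base 4280 were lost in 9 of 12 analyses that left out an LWT mouse and in 8 of 12 that left out an LKO mouse. The LKO call was also lost with the slide as a block, at the same difference of -0.34. The nearest profiles were those of Fam69a at 0.50, Gna11, a G protein subunit, at 0.52, and Zfp551 at 0.53.

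**Figure D4:**
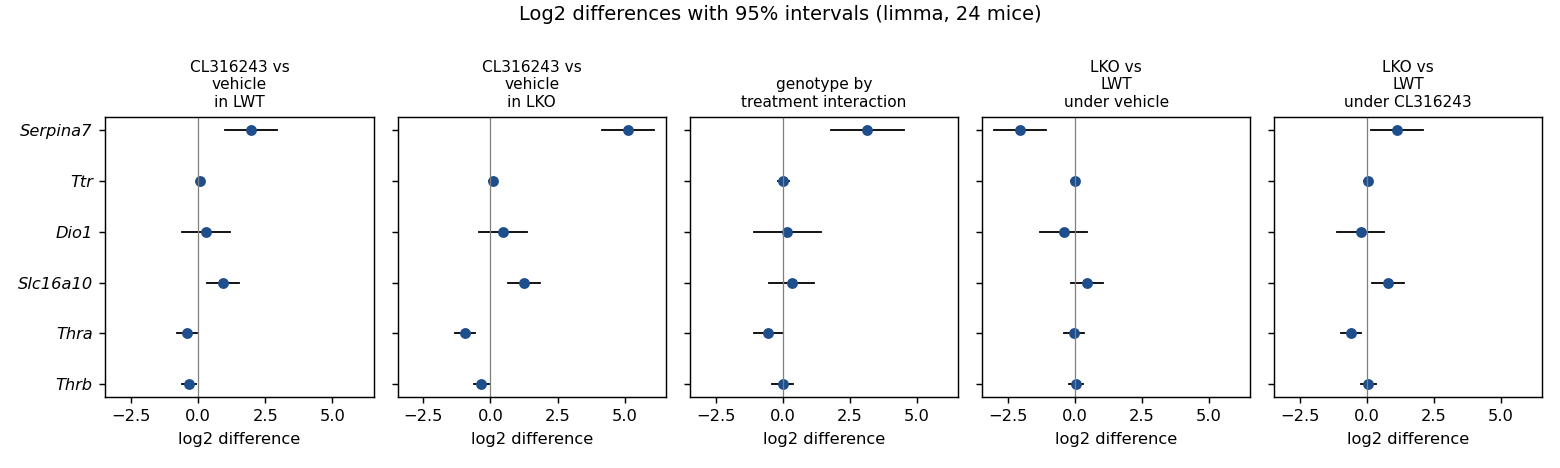
Log2 differences of the 6 genes in the 5 comparisons, with 95% intervals from the limma fit over 24 mice, on a common scale. Serpina7 has the widest departures from 0, positive with CL316243 in both genotypes and negative for LKO against LWT under vehicle, and the intervals of Ttr are the narrowest.

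Counted at a limma adjusted p under 0.05, 3 of the 6 genes were called for CL316243 in LWT, where 38.3% of all 21331 genes were, and 4 in LKO, where 40.3% were, or 3 with the slide as a block, which ended the call of Thrb. For the difference between the responses 1 of 6 was called (Serpina7), against 5.41% of all genes. Between genotypes, 1 was called under vehicle (Serpina7), against 1.18%, and 1 under CL316243 (Thra), against 15.9%. Without LKO CL316243 replicate 3 the counts were 4, 3, 1, 1 and 2, against 41.7%, 36.7%, 7.2%, 1.42% and 18.6% of all genes. The groups did not overlap for 0 and 3 members with CL316243 in LWT and LKO, against 20.4% and 20.8%, and for 2 and 0 members between genotypes under vehicle and CL316243, against 1.8% and 6.57%. The last 0 rests on LKO CL316243 replicate 3. Without that mouse Serpina7 did not overlap between genotypes under CL316243, with 3.11 the lowest in LKO and 2.45 the highest in LWT. The share of all genes without overlap was not recomputed without it. The members were chosen with these contrasts known, so the counts carry no weight of their own.

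Around these 6 genes, a list of 48 other genes of the pathway was examined, of which 47 were on the array and 44 could be tested. CL316243 raised 7 and lowered 13 of the 44 in LWT, and raised 12 and lowered 10 in LKO, at a limma adjusted p under 0.05. Of all genes, 18.9% rose and 19.4% fell in LWT, and 20.9% rose and 19.4% fell in LKO. In either direction that is 45.5% and 50% of the list, beside 38.3% and 40.3% of all genes. The median difference of the list was 0.03 in LWT and 0.02 in LKO, and that of all genes 0.01 and 0.03. Without LKO CL316243 replicate 3 the counts were 8 and 13 in LWT and 11 and 10 in LKO.

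Among the 4 other plasma carriers and binding proteins, Serpina6, which binds corticosteroids, fell by 0.67 in LWT with CL316243 and was 1.40-fold higher in LKO than in LWT under CL316243 (limma adjusted p = 0.0431). Of the 10 membrane transporters tested, 1 rose and 4 fell in LWT, and 3 rose and 3 fell in LKO. Slc3a2, the heavy chain that carries the amino acid and iodothyronine transporters of the LAT type to the membrane, rose by 1.21 (SE 0.21) in LKO and 0.71 in LWT. Its LKO rise was 0.96 (SE 0.13) without LKO CL316243 replicate 3. The organic anion transporter Slco1b2 was 1.46-fold higher in LKO than in LWT under CL316243 (adjusted p = 0.00537). Slc17a4 fell to 0.465 of its vehicle level in LWT (adjusted p = 0.0223). With LKO CL316243 replicate 3 left out, its responses differed between genotypes by 1.38 (SE 0.33, limma adjusted p = 0.0126). Its LKO level then exceeded that of LWT under CL316243 by 1.29 (adjusted p = 0.000506). The responses of Slco1b2 then differed by 0.48 (SE 0.15, adjusted p = 0.0491).

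The conjugating enzyme Sult1b1, which sulphates iodothyronines, fell by 1.07 (SE 0.17) in LKO and by 0.68 in LWT, whereas Sult1a1 was 1.56-fold higher in LKO than in LWT under CL316243 (limma adjusted p = 0.013). Of 15 receptor partners and coregulators, 3 rose and 3 fell in LWT and 4 rose and 3 fell in LKO. Tbl1xr1 and Tbl1x, paired subunits of the NCoR corepressor complex, went opposite ways in LWT: Tbl1xr1 rose by 1.41 (SE 0.13) and Tbl1x fell by 0.90 (SE 0.10). In LKO Tbl1xr1 rose by 1.15, and Tbl1x differed by -0.16, below the threshold. The Tbl1x responses themselves differed, by 0.74 (SE 0.15, limma adjusted p = 0.00296). Rxrg, a retinoid X receptor, fell by 1.56 (SE 0.35) in LKO and was 2.78-fold lower there than in LWT under CL316243. Its LKO difference with CL316243 was -1.24 (SE 0.29) without LKO CL316243 replicate 3. The coactivator Crebbp was lower in LKO than in LWT under CL316243 by 0.58 (adjusted p = 0.0191).

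Genes known to respond to thyroid hormone did not move in one direction. Of 11, 3 rose and 3 fell in LWT, and 3 rose and 2 fell in LKO. Thrsp, a lipogenic protein named for its response to the hormone, fell by 1.35 (SE 0.22) in LWT and also fell in LKO (limma adjusted p = 0.00099). Me1, malic enzyme, rose by 1.20 in both, and Bcl3 rose by 1.31 in LWT and 1.72 in LKO, or 1.45 without LKO CL316243 replicate 3. Cyp7a1, the rate-limiting enzyme of bile acid synthesis, was well above background in all 12 vehicle livers and in 2 of 6 treated livers of each genotype, and it fell in both (limma adjusted p = 5.72e-08 in LWT and 2.43e-07 in LKO). Several of these genes are controlled by other nuclear receptors and hormones as well.

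Gpd2, the mitochondrial glycerol-3-phosphate dehydrogenase, rose by 1.80 (SE 0.24, limma adjusted p = 4.45e-06) in LWT and differed by 0.16 in LKO. Its responses differed by -1.65 (SE 0.34, adjusted p = 0.00443), opposite in sign to the excess of Serpina7. Hr, a corepressor, was well above background in 6 of 6 CL316243 livers of LWT and 4 of 6 of LKO, so its fold rests partly on dim values. It was at 0.354 of the LWT level in LKO under CL316243 (limma adjusted p = 0.0311), but this call was lost without LKO CL316243 replicate 3 (adjusted p = 0.0661). Over the list, the responses of 1 list gene differed upward and of 1 downward between the genotypes, beside 5.41% of all genes, and 3 and 2 without that mouse. Under vehicle 0 of 44 list genes differed between genotypes (limma), 1 at an unadjusted p under 0.05, where 1.18% of all genes were called, so the count says little about the list. Under CL316243, 5 were higher and 5 lower in LKO, 22.7% of the list beside 15.9% of all genes, or 8 and 4 without that mouse.

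**Figure D5:**
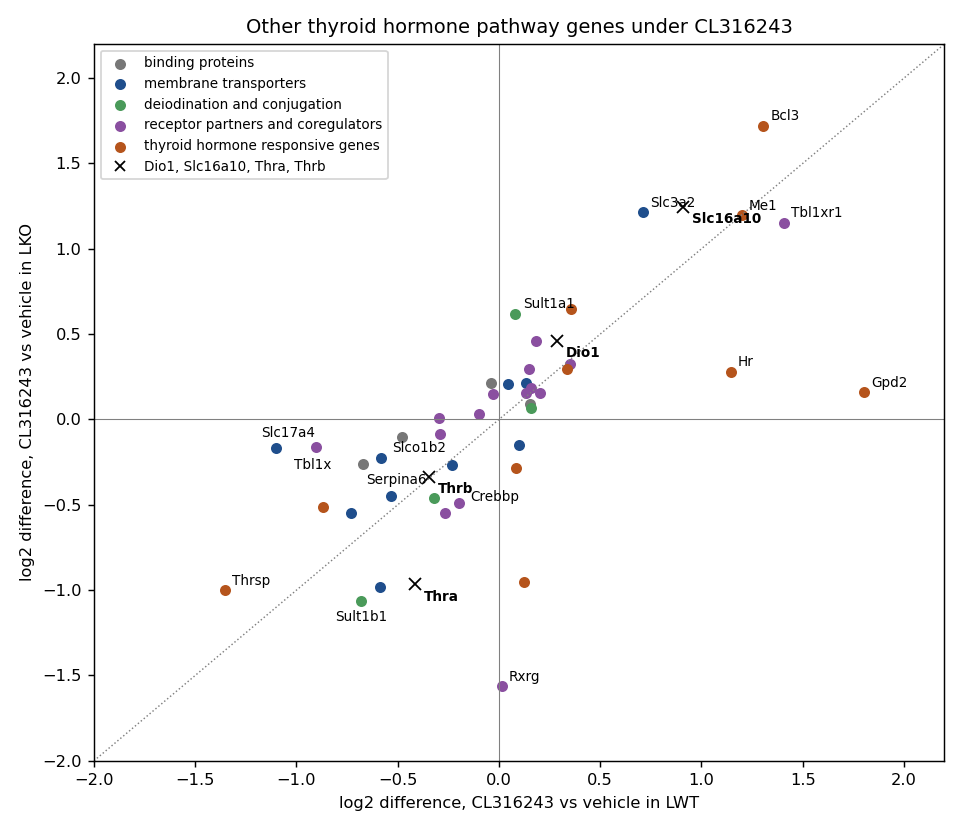
Log2 difference between CL316243 and vehicle in LWT (horizontal) and LKO (vertical) for the other thyroid hormone pathway genes tested, coloured by list, with Dio1, Slc16a10, Thra and Thrb as crosses and the line of equal difference dotted. Cyp7a1, Serpina7 and Ttr are not drawn. Gpd2, at 1.80 in LWT and 0.16 in LKO, and Tbl1x, at -0.90 and -0.16, lie away from the line.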

How the data were processed

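Liver RNA of 24 mice was hybridised to Agilent 1-colour arrays, 200 ng per labelling per the labels. Each deposited scanner table holds spot intensity values from Feature Extraction 10.10.1.1, background-corrected by that software per the file headers. The deposited series table holds log2 values of 31367 probes, column median 8.08. It differed by a median of 0.0042 from quantile-normalized log2 median signals, and was used as an alternative only.

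Outlier spots were left out, spots averaged per probe, and log2 intensity was taken relative to each array's 75th percentile. A probe was kept if, in some group, 4 or more of the 6 arrays showed it well above background (32037 probes), the brightest standing for its gene (21331 genes). Differences came from limma 3.58.1 in R 4.3.3, 1 mean per group, with Benjamini-Hochberg adjustment within each of 5 comparisons, and the script was tested on simulated data. From the pathway list, at most 4 called genes per comparison and direction are named, and the 3 nearest profiles per member except Ttr, passing over clone and locus identifiers. Members and lists were chosen with earlier results of these data known. Alternatives covered background, normalization, filter, probe choice, slide, row, replicate number and each mouse left out. The number of arrays limits the precision: the median SE of a difference between 2 groups was 0.13. The deviations of same-numbered mice correlated at -0.18 to 0.42. Of 24 such pairs, 6 were over 0.1, with 0.40, 0.42 and 0.25 for replicates 3, 4 and 6 between the CL316243 groups. The numbers were not taken as pairs, although these correlations do not settle whether same-numbered mice share anything.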

Additional observations from a re-analysis of the deposited data

Results flagged for a closer look

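In the 24 groups of 6 mice tested, 6 genes by 4 groups, chance places about 1 in 20 past Dixon's limit for a single outlying value. Serpina7 in LKO CL316243 replicate 3 was separated from its group by 0.857 of the range, and Thra in the same mouse by 0.704. Slc16a10 in LWT vehicle replicate 6 was separated by 0.648 of a narrow range, at 0.31 against 0.55 in the next mouse. The other 3 values belong to genes that responded to CL316243 to a different extent in the 2 genotypes by the test of that difference itself. The LKO response minus the LWT response was 3.16 for Serpina7, which was chosen with this in view, 0.74 for Tbl1x and -1.65 for Gpd2.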

How the results depend on the processing

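Of 726 recomputed differences of the 6 genes, 720 kept within 1 SD and their sign where called, and 0 of them turned a called sign. Many of these could not move. Slide, row and replicate number each hold the groups in equal number, so as blocks they leave every difference unchanged. Fitting only the compared groups does so too, and the filter settings kept the same probe for each gene. In those settings only the calls could change, so 720 overstates the stability. The 6 others concern Ttr after CL316243 in LWT and LKO: quantile normalization gave -0.14 and -0.10, with -0.14 and -0.11 in the authors' series table, and -0.12 and -0.18 as a mean of both probes. Of 247 counts, 236 stayed within 1.5 times. The Serpina7 vehicle difference between genotypes was not called with normexp, the series table or no filter. Of 10 other settings, 5 lost the Thrb call for CL316243 in LKO (slide as a block, the series table, no filter, mean of probes, only the groups compared). No filter and the mean of probes also lost that of Thrb in LWT, and no filter and only the groups compared that of Thra between genotypes under CL316243. Calls were gained for Ttr in LWT, as lower, with quantile normalization and the series table, for Thra in LWT with normexp and only the groups compared, and for Slc16a10 between genotypes under vehicle with only the groups compared and under CL316243 with the mean of probes. With no filter on dim probes, 664 genes differed in response, 167 under vehicle between genotypes, and 6 pathway genes between genotypes under CL316243. Fitting only the compared groups left 2203 genes and 4 pathway genes there. Requiring 1.5-fold as well left 3801 genes for CL316243 in LWT, 3885 in LKO and 1627 between genotypes under CL316243. The cause of these shifts was not tested, apart from the added fold or added genes. Leaving out single mice gave 2 to 5 pathway genes for the difference in response, with 5 without LKO CL316243 replicate 3 and 4 without LWT CL316243 replicate 3, and 6 to 12 between genotypes under CL316243, with 6 without LWT CL316243 replicate 6. Numbers shared by mice were not taken as pairs, and with the replicate block 1217 genes differed in response in place of 1153. The excess of Serpina7 is 3.16 there by construction, since each number occurs in every group, so it says nothing about pairing. Dim probes such as Mum1l1 and 4930513O06Rik limit what can be said of them.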
